A study of Mus musculus with 2 samples.

Results

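Small RNA sequencing of mouse neural tube, the embryonic structure that forms the brain and spinal cord, counted 9 microRNA (miRNA) genes that are known from skeletal and cardiac muscle. They were chosen by name, as the genes Mir206, Mir133b, Mir1a-1, Mir1a-2, Mir133a-1, Mir133a-2, Mir208a, Mir208b and Mir499 of the GENCODE mouse annotation, and the naming rule uses no measured value, although the list was drawn up with earlier results of these data known. Of the 9, 8 had a row among the 1973 miRNA genes of the deposited tables. Mir1a-2 had no row used here and is treated with its neighbour further on. The data held 1 group of 2 biological replicates of healthy B6NCrl embryos at day 11.5 of development. Replicate 1 pooled the neural tubes of 109 male and female embryos and replicate 2 those of 88. RNA shorter than 30 nt was sequenced. With no second tissue, stage or treatment, the data describe the level of each muscle miRNA gene and how far the 2 libraries differed.

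MiRNAs are short RNAs that pair with messenger RNAs, chiefly through the seed at bases 2 to 8 of the mature strand, and lower their output. Each is cut from 1 arm of a hairpin, and the 2 arms are named 5p and 3p. The genes described here are known as myomiRs, miRNAs whose main sites of expression are muscles. Mir206 and Mir133b are made together in skeletal muscle, the Mir1a and Mir133a genes in skeletal muscle and heart, and Mir208a, Mir208b and Mir499 are carried in introns of myosin heavy chain genes, the motor proteins of cardiac and slow skeletal fibres. MyoD and related factors of the muscle lineage are known to drive Mir206.

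RefSeq's table for GRCm38.p6 held mature strands of 6 of the 9 genes and hairpins of 5. The mature strands below are those of the genes on which the results turn, 5′ to 3′, with the seed in capitals, since genes that share a seed are expected to share many targets.
mmu-miR-206-3p: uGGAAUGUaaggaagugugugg
mmu-miR-133b-3p: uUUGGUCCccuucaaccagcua
mmu-miR-208a-3p: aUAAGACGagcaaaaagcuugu
mmu-miR-208b-3p: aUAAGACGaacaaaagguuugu
mmu-miR-499-5p: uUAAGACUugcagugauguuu
The 3p strands of Mir208a and Mir208b had the same seed and matched at 19 of 22 positions. Counted from 1 at the 5′ end, with the base of miR-208a-3p first, the differences were G10A, A16G and C18U. The 5p strand of Mir499 matched both miR-208 strands at 6 of the 7 seed positions and differed at the last one by G8U. Over 21 positions it matched miR-208a-3p at 12 and miR-208b-3p at 10. Among the 1738 mature miRNAs of the table, no gene outside this group had the seed of miR-208a-3p and miR-208b-3p, of miR-499-5p or of miR-133b-3p. The seed AGCUUUU of the 5p strands of both miR-208 genes was also found in miR-6415, whose gene Mir6415 had 0 counts in both libraries. The seed of miR-206-3p was also found in miR-6349 and miR-6382, whose genes Mir6349 and Mir6382 had 0 counts in both libraries. Of the Mir1a and Mir133a genes, the table held only the 5p strand of Mir1a-1. Whether their other strands share these seeds could not be read from it.

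The counts are per hairpin and do not tell the 2 arms apart. The hairpins of 4 genes are shown with both mature arms in capitals, because reads from any part of each were added to 1 value.
Mir206, chr1:20679010-20679082, plus strand: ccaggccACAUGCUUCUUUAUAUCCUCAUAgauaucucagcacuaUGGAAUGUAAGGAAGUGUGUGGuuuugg
Mir208a, chr14:54949060-54949142, minus strand: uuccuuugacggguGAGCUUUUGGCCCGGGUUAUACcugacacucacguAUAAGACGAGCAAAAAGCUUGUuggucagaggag
Mir208b, chr14:54975700-54975776, minus strand: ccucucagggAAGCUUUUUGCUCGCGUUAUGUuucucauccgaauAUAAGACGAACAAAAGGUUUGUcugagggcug
Mir499, chr2:155622880-155622958, plus strand: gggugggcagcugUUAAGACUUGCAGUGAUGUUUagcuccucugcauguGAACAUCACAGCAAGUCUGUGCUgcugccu
The hairpins of Mir206, Mir208a, Mir208b and Mir499 shared no run of more than 13 nt with any other hairpin of the annotation. Mir206 shared 13 nt with Mir1a-1 and with Mir1a-2, and Mir208a shared 10 nt with Mir208b. Their reads could therefore be placed on 1 gene as far as other annotated hairpins are concerned. The other 5 genes each had 20 nt or more in a row in common with another member, and multiply mapped reads were added to no gene.

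The libraries held 8530505 reads in replicate 1 and 7655421 in replicate 2. Own-strand counts on miRNA genes came to 3708662 and 4055883 of these. Levels are given as counts per 1000000 of these counts (CPM), and no level was divided by hairpin length, since a read of this size covers about 1 mature miRNA. Multiply mapped reads made up 25.2% of the reads of replicate 1 and 27.3% of those of replicate 2. Where a gene had 0 counts, a true value of up to 3 counts is allowed for, equal to 0.809 CPM for replicate 1 and 0.740 CPM for replicate 2. Such limits, and all intervals given here, cover counting error alone, because reads without molecular identifiers are not independent molecules. Levels of 11 neural miRNA genes were read beside the tissue label. They do not test it, because every gene with a row in the lists of other cell types also had counts in both libraries. The 10 neural genes with a row all had counts in both libraries and summed to 8816 and 7725 CPM. Mir92b of neural progenitors gave 5250 and 4708 CPM of that sum, while Mir9-2 had 2.16 and 2.47 CPM and the 3 Mir124a genes, made in neurons, each had between 1.23 and 11.9 CPM. Multiply mapped reads were added to no gene, so these values and the sums of gene lists cover only reads placed on 1 gene. Runs shared by copies of Mir9 or Mir124a were not searched for, so their counts do not give the level of the mature miRNAs. Lists of mesenchymal and endothelial genes summed to more than the neural list, at 17892 and 12607 CPM for mesenchyme and 24945 and 22302 CPM for Mir126a, the endothelial gene.

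Mir206 accounted for most of the uniquely placed muscle counts in neural tube. Multiply mapped reads of the Mir1a and Mir133a copies, and of the 21 nt that Mir133b shares with Mir133a, are missing from what follows. Their number is unknown, and the sums, shares and order below cover only reads placed on 1 gene. All 8 members with a row summed to 5495 counts in replicate 1 and 3850 in replicate 2, or 0.148% (95% Wilson interval 0.144 to 0.152) and 0.0949% (0.0920 to 0.0980) of counts. Mir206 made up 91.7% of that sum in replicate 1 and 80.1% in replicate 2, and Mir208b made up 4.06% and 14.4%. The order of the 5 genes above the detection limit was the same in both libraries. Mir206 stood first, followed by Mir208b, Mir133b, Mir499 and Mir208a, and the ranges of neighbours in this order did not overlap over the 2 libraries. In replicate 2, however, the counts of Mir499 and Mir208a, 43 and 36, had overlapping 95% Poisson intervals (31.1 to 57.9 and 25.2 to 49.8). In bulk tissue, fewer cells of a type and less RNA per cell cannot be told apart, so these levels do not say how many cells held a miRNA.

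**Figure D1:**
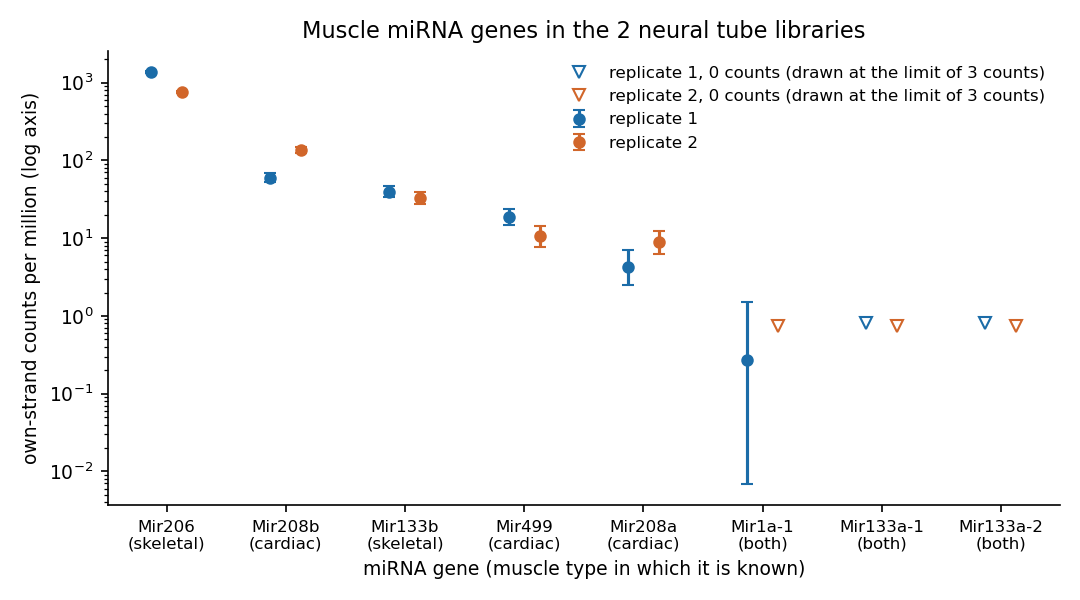
Own-strand CPM of the 8 muscle miRNA genes with a row, on a log axis, in replicate 1 (blue) and replicate 2 (orange). Points carry 95% Poisson intervals and open triangles mark 0 counts at the limit of 3 counts. Mir206 stood at 1358 and 761 CPM, Mir208b at 60.1 and 136 CPM, and Mir133a-1 and Mir133a-2 had 0 counts.

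The skeletal muscle pair was led by Mir206 (ENSMUSG00000065559.1), which had 5038 counts in replicate 1 and 3085 in replicate 2. This was 1358 and 761 CPM, with a mean of 1060 ± 423 CPM (SD, n = 2). By its mean it ranked number 97 of the 1973 genes, with 724 genes having any count. Mir133b (ENSMUSG00000065480.1), which is made from the same skeletal muscle locus, had 147 counts in replicate 1 and 133 in replicate 2, a mean of 36.2 ± 4.84 CPM (SD, n = 2). Mir206 thus had 34.3 times as many counts as Mir133b in replicate 1 and 23.2 times as many in replicate 2. Both hairpins overlap exons of the long noncoding RNA gene Gm28653 on the plus strand of chromosome 1 (GRCm38), with Mir133b at 20682769 to 20682887 and 3686 bases between them. Mir133b shares 21 nt with the Mir133a genes, while Mir206 shares no run of 20 nt, so the ratio of the 2 covers only the reads that were counted.

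The genes made in both skeletal muscle and heart were at or near 0 counts. Mir1a-1 (ENSMUSG00000070144.1) had 1 count in replicate 1 and 0 in replicate 2. Mir133a-1 (ENSMUSG00000065399.1) and Mir133a-2 (ENSMUSG00000065460.1) had 0 counts in both libraries. These genes come as copies: the hairpins of Mir1a-1 and Mir1a-2 share 28 nt, and those of Mir133a-1 and Mir133a-2 share 31 nt, longer than a mature miRNA. A read from such a stretch maps to more than 1 place, and such reads stood outside the gene counts. How many of them came from these genes was not analysed here, so the counts near 0 are a limit for reads that fit 1 copy alone. They do not give the level of miR-1 or miR-133a. Mir1a-1 lies on chromosome 2 from 180389048 to 180389124 and Mir133a-2 from 180398379 to 180398482, both on the plus strand, with no other gene of GENCODE M21 overlapping them. They are 9254 bases apart.

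The remaining pair, Mir133a-1 and Mir1a-2, lies on chromosome 18, 2504 bases apart in introns of Mir133a-1hg and opposite Mib1, a ubiquitin ligase gene of the Notch pathway. For Mir1a-2 the strand columns of an overlapping row gave a substitute, a choice made after the values were seen. Mir1b (10785446 to 10785567, plus strand) covers the whole of Mir1a-2 (10785481 to 10785552, minus strand). Reads on the strand opposite Mir1b, which is the strand of Mir1a-2, numbered 0 in both libraries. Reads from the 28 nt that Mir1a-2 shares with Mir1a-1 map to more than 1 place and are missing here too. The 0 therefore does not give the level of Mir1a-2. For all 8 members with a row, the opposite-strand count was also 0 in both libraries.

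Among the cardiac genes, Mir208b led and Mir208a was scarce. Mir208b (ENSMUSG00000077928.1), in an intron of Myh7, the slow and fetal cardiac myosin heavy chain gene, had 223 counts in replicate 1 and 553 in replicate 2. These were 60.1 and 136 CPM, with a mean of 98.2 ± 53.9 CPM (SD, n = 2). Mir208a (ENSMUSG00000065432.1), in an intron of Myh6, the myosin gene of the adult mouse heart, had 16 counts in replicate 1 and 36 in replicate 2, or 4.31 and 8.88 CPM. The 2 hairpins are 26557 bases apart on the minus strand. Mir208b exceeded Mir208a by 13.9 times in replicate 1 and 15.4 times in replicate 2, and the shared seed UAAGACG summed to 64.4 and 145 CPM over the 2 genes. Mir499 (ENSMUSG00000076312.1), in an intron of Myh7b, a myosin gene known from slow muscle and heart, had 70 counts in replicate 1 and 43 in replicate 2, or 18.9 and 10.6 CPM. Summed, the skeletal genes Mir206 and Mir133b had 16.8 times as many counts as the 3 cardiac genes in replicate 1 and 5.09 times as many in replicate 2. Since the host genes of Mir208b and Mir499 are also known from slow muscle, this ratio does not divide skeletal from cardiac reads.

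The libraries were then compared gene by gene, by a two-sided exact binomial test on each gene's counts given the library totals. P-values were adjusted by the Benjamini-Hochberg method over all 444 genes with at least 10 summed counts, and adjusted values below 0.05 were called. It sets 1 library against the other, with reads treated as independent, and says nothing of conditions. The background was high: 53.2% of the genes tested were called, 45.3% as higher in replicate 1 and 7.88% as higher in replicate 2. Of the 9 muscle genes, 1 had no row and 3 had too few counts. Of the 5 tested, 2 were called higher in replicate 1, 2 higher in replicate 2 and 1 was not called, and 4 of 5 in either direction is read against that background. Over all genes tested, the libraries varied beyond counting error with a coefficient of variation of 17.6%, from edgeR's common dispersion.

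Replicate 1 held 1.79-fold more Mir206 (adjusted p = 2.13e-145, exact binomial test) and 1.78-fold more Mir499 (adjusted p = 0.00724, exact binomial test). Replicate 2 held 2.27-fold more Mir208b (adjusted p = 2.04e-26, exact binomial test) and 2.06-fold more Mir208a (adjusted p = 0.0337, exact binomial test). Mir133b had 39.6 CPM in replicate 1 and 32.8 CPM in replicate 2, which did not pass the test (exact binomial adjusted p = 0.195). The cardiac genes thus did not move as 1 group, since Mir499 was higher in replicate 1 and both miR-208 genes in replicate 2. The log2 ratio of replicate 1 over replicate 2 had a median of 0.27 over the 444 genes. That of Mir208b, -1.18, was the lowest of the 301 genes with at least 100 summed counts, where Mir206 and Mir499 ranked 21 and 22 from the side of replicate 1. Among all 444 genes, Mir208b ranked 3 and Mir208a ranked 5 from the side of replicate 2.

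**Figure D2:**
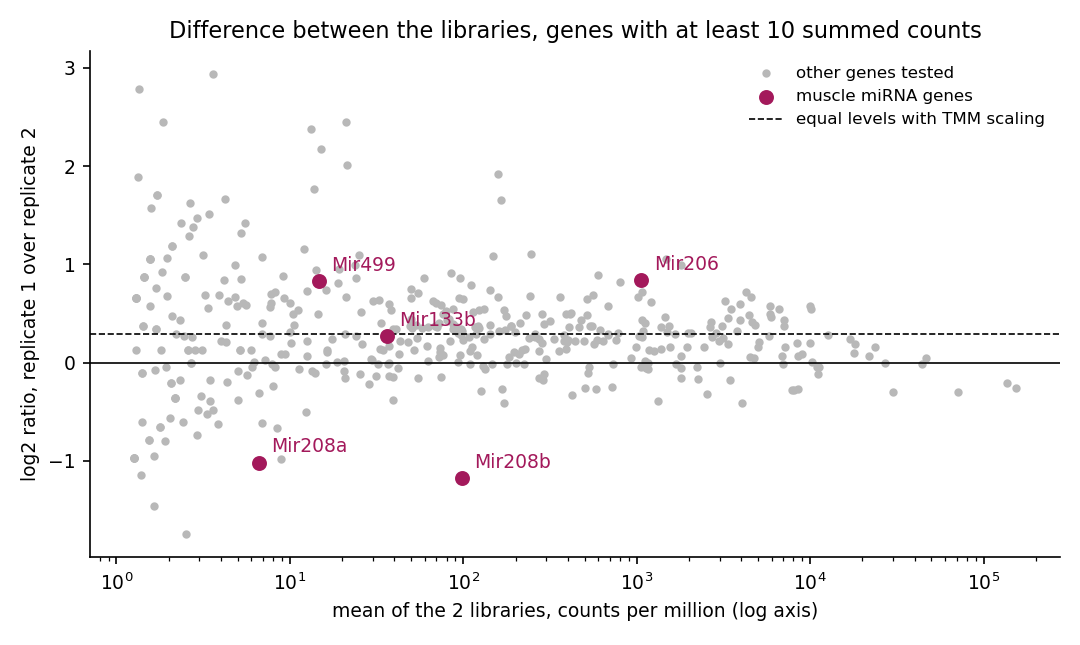
Log2 ratio of replicate 1 over replicate 2 against mean CPM (log axis) for the 444 genes tested. Each point is 1 gene, muscle genes are named in purple, and the dashed line marks equal levels with TMM scaling. Mir208b at -1.18 and Mir208a at -1.02 lie below most genes, while Mir206 at 0.84 and Mir499 at 0.83 lie above most of them.

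Scaling moved the whole set. With edgeR's TMM factors (trimmed mean of M values) in place of total counts, every log2 ratio shifted by -0.29, so the median gene stood near equality at -0.02. The share of all 444 genes called was then 39.9%, with 18.2% higher in replicate 1 and 21.6% higher in replicate 2. Replicate 1 then held 1.46-fold more Mir206 (adjusted p = 1.20e-62, exact binomial test). Replicate 2 held 2.76-fold more Mir208b and 2.47-fold more Mir208a (adjusted p = 8.61e-41 and 0.00594, exact binomial test). Mir206, Mir208a and Mir208b kept their direction and their call under TMM, under DESeq2's size factors and when the 10 most abundant genes were left out of the total. DESeq2's factors called 41.0% of all genes tested and the reduced total 41.4%. Mir499 kept its direction but was not called under these 3 scalings (exact binomial adjusted p = 0.130, 0.107 and 0.0694). Mir133b was near equality under all 3, with log2 ratios from -0.01 to 0.07. Mir208a also lost its call when every gene with at least 1 count was tested (exact binomial adjusted p = 0.0549), where 31.6% of genes were called.

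**Figure D3:**
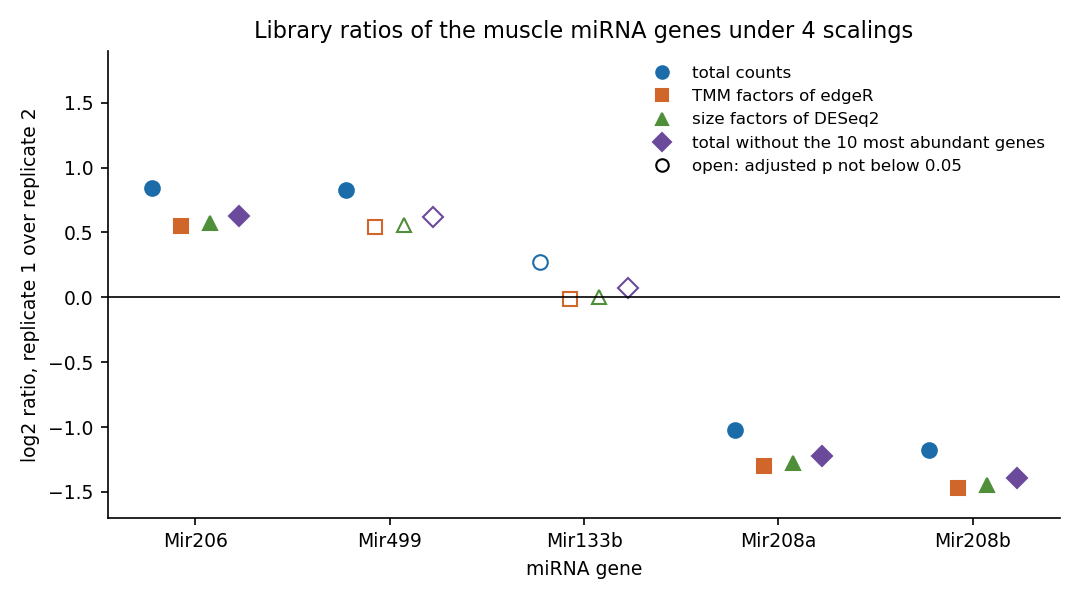
Log2 ratio of replicate 1 over replicate 2 for the 5 muscle miRNA genes tested, under 4 ways of scaling the libraries (marker shape and colour). Filled markers passed an adjusted p of 0.05 and open ones did not. Mir206 stayed between 0.55 and 0.84, and Mir208b between -1.47 and -1.18.

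Ratios between muscle genes within a library do not depend on library totals. For the 5 genes with at least 10 summed counts, all 10 pairs were compared between the libraries by a two-sided Fisher's exact test with Benjamini-Hochberg adjustment, and 7 differed. The same 7 pairs passed whether p-values were adjusted over these 10 pairs or over all 98346 pairs of the 444 genes tested, of which 27.6% passed. The p-values given here are adjusted over all pairs. Mir206 had 22.6 times as many counts as Mir208b in replicate 1 and 5.58 times as many in replicate 2, an odds ratio of 4.05 (95% interval 3.44 to 4.78, Fisher's exact adjusted p = 5.85e-70). Mir208b had 3.19 times as many counts as Mir499 in replicate 1 and 12.9 times as many in replicate 2 (odds ratio 0.248, 95% interval 0.160 to 0.380, Fisher's exact adjusted p = 1.83e-10). Mir206 over Mir133b, both in exons of the same noncoding gene, also differed (odds ratio 1.48, 95% interval 1.15 to 1.89, Fisher's exact adjusted p = 0.00678). Fisher's test treats reads as independent and leaves out the variation beyond counting error, 17.6% over all genes tested. Whether the 2 genes differ in output from that locus was not tested. Since Mir133b shares 21 nt with the Mir133a genes, its pairs cover only the reads that were counted. The other 4 pairs that differed were Mir206 and Mir133b each against Mir208a, Mir133b against Mir208b, and Mir208a against Mir499.

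For 3 pairs the test did not pass. Mir206 had 72.0 times as many counts as Mir499 in replicate 1 and 71.7 times as many in replicate 2, an odds ratio of 1.00 with an interval from 0.668 to 1.49. Mir208a over Mir208b had an odds ratio of 1.10 with an interval from 0.559 to 2.09. Mir133b over Mir499 had 0.679 with an interval from 0.423 to 1.08. A p that misses the threshold does not show that such pairs kept their ratio. The intervals cover counting error alone, so they do not bound how far it could have moved. The p-values of these pairs are not independent, since each gene enters 4 of the 10.

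**Figure D4:**
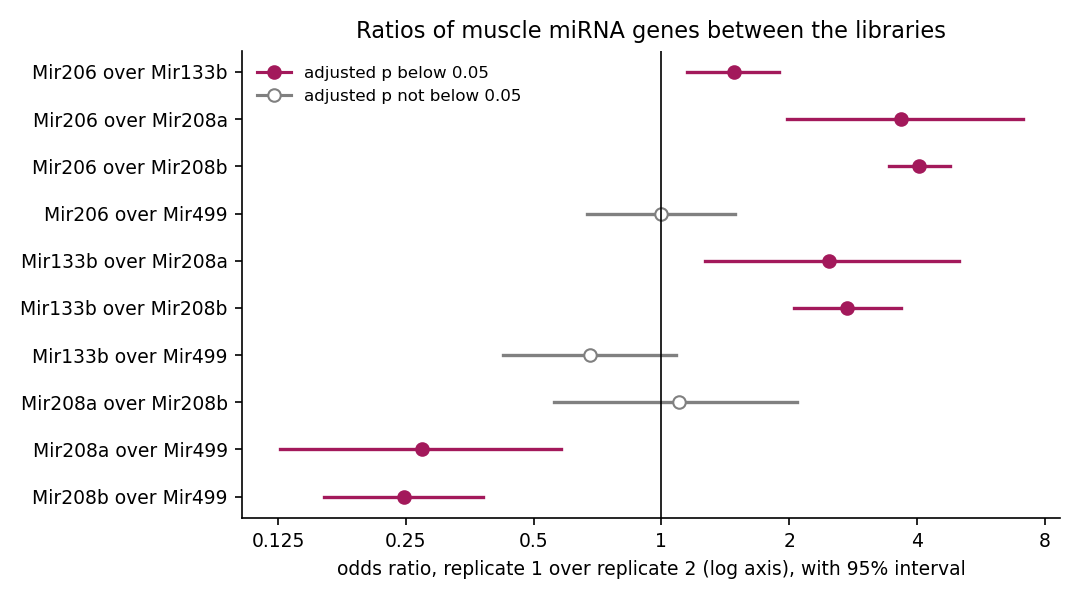
Odds ratio of replicate 1 over replicate 2 (log axis) for each of the 10 pairs of muscle miRNA genes with at least 10 summed counts, with conditional exact 95% intervals. Purple pairs passed Fisher's exact test after adjustment and grey pairs did not. Pairs that set Mir206 or Mir133b over a miR-208 gene lie between 2.49 and 4.05, and Mir206 over Mir499 lies at 1.00.

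A list of 12 other genes with known roles in muscle served as context, of which 10 had a row. Runs that their hairpins share with other hairpins were not searched for. Their values cover only reads placed on 1 gene and may miss reads of copies. Mir489, known from quiescent muscle stem cells, had 0 counts in both libraries, and Mir486a (Mir486 in the annotation), of muscle and red blood cells, had 12.9 and 12.3 CPM and was not called. The other 8 were called higher in replicate 1 with total counts, as were 45.3% of all genes tested. With TMM scaling 4 of the 9 tested were higher in replicate 1, 1 was higher in replicate 2 and 4 were not called, beside 18.2% and 21.6% of all genes tested called higher in replicate 1 and in replicate 2. The median log2 ratio of the 9 with total counts was 0.35, beside 0.27 over all 444 genes. Mir503, which with Mir322 promotes myoblast differentiation, was 1.61-fold higher in replicate 1 and kept its direction with TMM (log2 ratio 0.40). Mir322 was 1.18-fold higher with total counts but turned with TMM, to a log2 ratio of -0.05. Mir214, made in mesenchyme and in muscle precursors, was higher in replicate 1, with 11919 and 7968 CPM (log2 ratio 0.58), and kept its direction with TMM (log2 ratio 0.29). Mir22, Mir27b, Mir31, Mir143 and Mir145a ranged from 1.21-fold to 1.35-fold higher with total counts. With TMM, Mir22 and Mir27b kept their call, at log2 ratios of 0.07 and 0.14, and Mir31, Mir143 and Mir145a lost it, at 0.06, -0.02 and 0.07. None of the 9 tested had a ratio as far toward replicate 2 as Mir208a or Mir208b.

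The summed levels of marker lists of other cell types differed by less than those of the miR-208 genes and, with total counts, in the other direction. By gene, Mir92b, Mir137 and Mir153 of the neural list were called higher in replicate 1 with total counts, as were 45.3% of all genes tested. Their ratios of replicate 1 over replicate 2 were 1.11, 1.23 and 1.23. The Mir124a genes had ratios from 1.22 to 1.53 and were not called. Mir9-2, Mir9-3, Mir218-1 and Mir218-2 had ratios from 0.875 to 0.997, and none of the 4 was called. The mesenchymal list, with counts in both libraries for all 5 genes, summed to 17892 CPM in replicate 1 and 12607 CPM in replicate 2, a ratio of 1.42. The blood list, with 4 of 5 genes having a row and counts in both libraries, summed to 999 and 723 CPM, a ratio of 1.38. The smooth muscle genes Mir143 and Mir145a summed to 6466 and 5359 CPM, and the endothelial gene Mir126a had 24945 and 22302 CPM, ratios of 1.21 and 1.12. The neural list had a ratio of 1.14. With TMM scaling the mesenchymal and blood ratios were 1.16 and 1.13, and the smooth muscle, endothelial and neural ratios turned to 0.988, 0.916 and 0.935. None of these lists had a defining gene with a row at 0 counts. The part of mesenchyme, blood or other cells in the levels of Mir206, Mir499 and the miR-208 genes was not tested.

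The genes whose levels were most like that of Mir206, by distance in log2(CPM + 1) over the 2 libraries, were Mirlet7d (distance 0.09), Mir433 (0.13) and Mir27b (0.30). Mirlet7d had 1326 and 807 CPM. For Mir208b the nearest genes were Mir302c (0.82), Mir758 (0.84) and Mir331 (0.89). Mir302c had 70.6 and 78.4 CPM against 60.1 and 136 CPM for Mir208b, and all 3 distances were larger than those found for Mir206. With 2 libraries this measure shows likeness of level and of 1 ratio only.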

How the data were processed

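The authors deposited raw counts of reads for each miRNA gene in 2 libraries of 1 group, for assembly mm10 and GENCODE M4 per the file headers. The sources used here name no aligner, counter or trimming. The 3 unnamed columns were read as either-strand, own-strand and opposite-strand counts, since the first was the sum of the other 2. Own-strand counts were used. Rows that name no gene (unmapped, multiply mapped and unassigned reads) were 56.5% of all reads for replicate 1 and 47.0% for replicate 2, and stayed out of totals and tests.

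Symbols, coordinates, hosts and hairpins came from GENCODE M21 (GRCm38), matched by identifier without version (1894 of 1973 rows). The 79 others held 4 own-strand counts. Sequences came from RefSeq (GRCm38.p6). A pseudocount of 0.5 counts was added for log2 ratios, and fold differences with total counts are ratios of CPM. Named genes were the 9 members, 12 other muscle genes, genes sharing a member's seed and the 3 nearest genes of Mir206 and Mir208b. Marker lists of other cell types added Mir92b, Mir126a and genes of the Mir9, Mir124a and Mir218 families, and Mir1b was named after its values were seen. Members and lists were chosen with earlier results of these data known. The labels name separate pools, and p-values measure only the spread of reads between these libraries. The exact binomial test was run over all genes. Alternatives were either-strand counts, other totals, TMM (edgeR 4.0.16) and DESeq2 1.42.0 scaling under R 4.3.3, filters of 1 and 100 summed counts, runs of 18 nt, each library alone and, chosen after seeing the data, adjustment over all gene pairs. Python 3.11.15, pandas 2.3.3 and scipy 1.17.1 computed the rest. No column was left untied to a sample (0).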

Additional observations from a re-analysis of the deposited data

Results flagged for a closer look

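Mir1b, which lies opposite Mir1a-2 and is not a member, had 10 own-strand counts in replicate 1 and 10 in replicate 2, above the 3 counts that a count of 0 allows. These were 2.70 and 2.47 CPM, against 1 and 0 counts for Mir1a-1. Mir1b was among the 444 genes tested between the libraries and was not called. Its hairpin shares 13 nt with each Mir1a hairpin in the direction in which it is read.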

How the results depend on the processing

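No member that was called reversed its direction. Mir133b, which was not called, went from a log2 ratio of 0.27 with total counts to -0.01 with TMM. Among the other muscle genes, Mir322 turned from a call for replicate 1 to one for replicate 2 (log2 ratio -0.05 with TMM and -0.03 with DESeq2), and Mir143 turned with TMM (-0.02) without a call. The ratio of replicate 1 over replicate 2 for the neural list turned to 0.935 with TMM, 0.947 with DESeq2 and 0.988 with the total without the 10 most abundant genes, that of the endothelial gene to 0.916, 0.928 and 0.969, and that of the smooth muscle list to 0.988 with TMM. These shifts come with every ratio being scaled alike. The members' share of counts, 0.122% ± 0.0376 (SD, n = 2), was 0.0574% of all reads and 0.281% of the total without the 10 most abundant genes, as a larger and a smaller denominator give by construction. It was 0.119% with either strand and 0.118% without members that share a run of 20 nt. The number of members called was 4, and 3 with TMM, with DESeq2 and with the total without the 10 most abundant genes, where Mir499 was lost. It was also 3 when genes with at least 1 count were tested, where Mir208a was lost and 31.6% of all genes tested were called. With at least 100 counts it was 3 again, where Mir208a was not tested and 225 of all 301 genes tested were called. Over all genes, 236 were called, and from 177 with TMM to 245 with either strand under the alternatives. The skeletal over cardiac ratio, 10.9 ± 8.26 (SD, n = 2), was 14.1 for Mir206 over Mir208b and 10.6 without shared runs. One library alone gave 16.8 (replicate 1) or 5.09 (replicate 2), and a share of 0.148% or 0.0949%. The 7 differing pairs, also with adjustment over all pairs of genes (chosen after seeing the data), and the 5 members with a shared run kept their number under each alternative tried. Of 40 alternative levels of single genes, 9 moved by more than 1 SD, all with another denominator. With 52 summed counts, Mir208a is held to wide intervals. No paired analysis was possible because there is only 1 group.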
